A study of Mus musculus with 4 samples.

Results

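The aquaporin genes Aqp1, Aqp3, Aqp4, Aqp5, Aqp7, Aqp8, Aqp9 and Aqp11 were followed in whole livers of newborn mice, control against Lats1/2-deficient, as the water and glycerol channels of hepatocytes and bile ducts. Every probe that the platform's annotation gives to these 8 genes was taken, whatever its signal. This gave 16 of the 25697 probes on the array. The 2 control livers are labelled wild type, and the 2 double-knockout (DKO) livers Lats1-/-;Lats2f/fl;Alb-cre. All 4 are labelled B6;129 mixed, female and postnatal day 1, from the same pregnant mice. Lats1 was lost in every cell of the DKO animals, whereas Lats2 was deleted only where the albumin promoter drives Cre, that is in the hepatoblast lineage. The Lats kinases phosphorylate YAP and TAZ, which keeps these transcriptional co-activators out of the nucleus, and the study asked how their loss alters hepatocyte and biliary fate.

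Aquaporins are tetrameric channels of the cell membrane. The classical members pass water along an osmotic gradient, while the aquaglyceroporins also pass glycerol. In the liver, bile is a watery secretion made by hepatocytes and modified by biliary epithelial cells (BECs), and hepatocytes also take up glycerol released from fat to make glucose and triglyceride. AQP9 is the glycerol channel of the sinusoidal face of hepatocytes, AQP8 lies in hepatocyte vesicles, bile canaliculi and mitochondria of the rat, and AQP1 and AQP4 are the water channels of rat bile duct cells.

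The DNA just before a listed transcription start is shown for 4 members, so that their start regions can be set side by side. These are the 4 with a probe well above background on every array (Aqp9, Aqp1, Aqp8 and Aqp11). RefSeq's promoter windows (build GRCm38.p6) covered 7 of the 8 genes, and the 250 bases before the start were used, written 5′ to 3′ on the gene's own strand. Capitals mark matches, on either strand, to any of 6 motifs: GGAATG, bound by TEAD factors (the DNA-binding partners of YAP), CAAAGTCC, bound by HNF4A, GTTAAT, bound by HNF1, TGTTTTC of insulin response elements, AGGTCA of nuclear receptor sites and TATAAA of core promoters.
Aqp9, chr9:71163290-71163539, - strand: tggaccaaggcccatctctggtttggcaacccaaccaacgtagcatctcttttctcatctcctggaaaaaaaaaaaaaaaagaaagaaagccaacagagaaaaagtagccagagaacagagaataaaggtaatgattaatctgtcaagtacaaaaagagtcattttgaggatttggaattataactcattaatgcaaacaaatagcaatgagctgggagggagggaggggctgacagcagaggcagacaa
Aqp1, chr6:55336049-55336298, + strand: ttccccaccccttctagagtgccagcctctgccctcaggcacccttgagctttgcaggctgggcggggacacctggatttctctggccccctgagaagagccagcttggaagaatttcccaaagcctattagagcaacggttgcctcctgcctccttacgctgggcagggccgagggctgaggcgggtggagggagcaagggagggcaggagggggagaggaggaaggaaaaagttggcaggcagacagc
Aqp8, chr7:123462044-123462293, + strand: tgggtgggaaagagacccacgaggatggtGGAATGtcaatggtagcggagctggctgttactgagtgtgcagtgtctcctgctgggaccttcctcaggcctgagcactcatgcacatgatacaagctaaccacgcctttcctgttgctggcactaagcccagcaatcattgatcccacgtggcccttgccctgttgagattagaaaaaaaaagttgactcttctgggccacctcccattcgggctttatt
Aqp11, chr7:97738248-97738497, - strand: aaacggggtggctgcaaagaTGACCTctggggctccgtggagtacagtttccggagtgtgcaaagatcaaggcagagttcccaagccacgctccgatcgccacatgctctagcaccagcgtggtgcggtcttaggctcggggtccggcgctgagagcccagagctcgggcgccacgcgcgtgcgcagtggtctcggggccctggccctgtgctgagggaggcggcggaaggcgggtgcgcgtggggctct

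Aqp9 has a second listed start, and the 250 bases before it held a match to TGTTTTC, 250 to 244 bases before that start. Both listed starts of Aqp9 lie inside the gene as annotated, whose 5′ end is at chr9:71167849. The bases before that end were not searched. The window of Aqp9 shown and that of Aqp1 held none of the 6 motifs. That of Aqp8 held 1 GGAATG on the gene's strand, 221 to 216 bases before the start. That of Aqp11 held the nuclear receptor half-site on the opposite strand, 230 to 225 bases before the start. None of the matches overlapped another. Among all 32851 windows of this length, GGAATG occurred in 12.6%, CAAAGTCC in 1.2%, GTTAAT in 6.43%, TGTTTTC in 6.33%, AGGTCA in 14.0% and TATAAA in 12.4%. The windows differed in base composition, with 40.4% G and C for Aqp9, 52.4% for Aqp8, 62% for Aqp1 and 67.2% for Aqp11, against a median of 52.4% over all windows. A match is a string of letters and no evidence of binding.

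The values below are deposited intensities, in arbitrary units and not normalized between arrays, or log2 values after background correction and quantile normalization. A probe counts as detected where its detection p, the share of negative-control signal at or above it, was under 0.05. Between 12514 and 13641 probes were detected per array. The test, with limma, took in a probe if 2 or more of the 4 arrays detected it. A gene was represented by its brightest tested probe, which gave 9502 genes. Precision is limited by the number of arrays (2 per group), and log2 changes had a median SE of 0.37. An exact permutation test of 2 against 2 arrays cannot go below p = 0.333 (two-sided), so significance rests on the spread that limma shares across probes. No label says that every array came from an animal of its own. The p-values thus describe only the spread between these samples, which in the DKO group may be technical. Control replicate 2 carried a transcript of the Y-linked gene Eif2s3y (log2 11.31, against 4.69 to 4.94 on the other arrays) and low Xist (5.16 against 9.07 to 9.86), so it read as male against its label. Values without it are therefore given for each of the 6 tested aquaporins, on the probe that represents the gene.

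Of the 8 aquaporins, 6 were tested, and 1 was significantly lower and 0 higher in DKO livers (limma with Benjamini-Hochberg adjustment over all tested probes). Across all tested genes 1.68% were lower and 1.75% higher by the same rule, 3.43% in all. Without control replicate 2 there were again 1 lower and 0 higher. At an unadjusted p under 0.05 there were 2 aquaporins, Aqp9 and Aqp11, both lower, against 16.1% of all tested genes. Signal per molecule differs between probes, so levels are compared only within a probe. Log2 changes were negative for 5 of the 6 tested genes, with a median of -1.04, against 0.0046 over all tested genes. In 3 of the 6 (Aqp9, Aqp11 and Aqp1) both DKO arrays lay below both control arrays, as in 22.8% of all tested genes, and in 1 (Aqp5) both lay above, as in 22.7%. Aqp5 was undetected in both controls and tested only through its DKO arrays, so its place above them follows from the filter. The 6 genes had passed a filter on detection, and neither their median nor these counts stand for Aqp4 and Aqp7, which were below detection throughout.

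**Figure D1:**
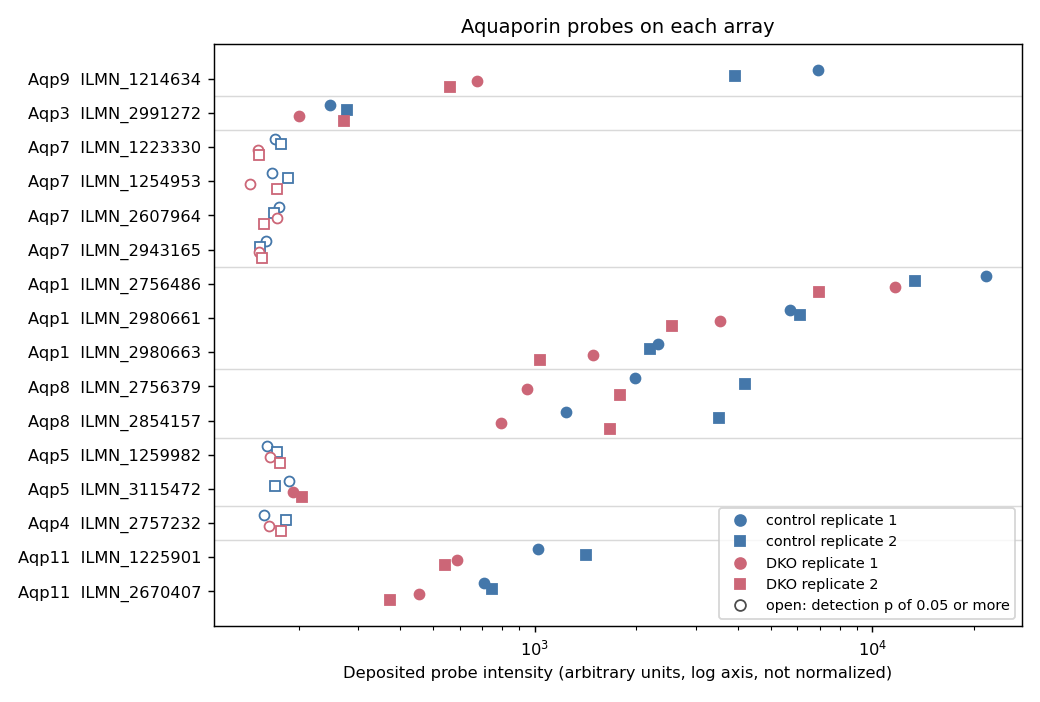
Deposited intensity of all 16 aquaporin probes (horizontal log axis, arbitrary units) on the 2 control arrays (blue) and 2 DKO arrays (red), with circles for replicate 1, squares for replicate 2 and open symbols for probes not detected. Aqp9 reads 3922 and 6904 in controls against 561 and 676 in DKO livers. The probes of Aqp1 and Aqp11 and, before normalization, the brighter probe of Aqp8 are also lower in both DKO livers. Aqp4 and Aqp7 stay at background.

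The aquaglyceroporins are described first. Aqp9, the channel for glycerol uptake into hepatocytes, was the aquaporin that fell. Its only probe (ILMN_1214634) read 6904 and 3922 in control replicates 1 and 2, and 676 and 561 in DKO replicates 1 and 2. Both DKO livers lay far below both controls, and the probe was detected on all 4 arrays. The mean DKO intensity was 11.4% of the control mean. After normalization control livers averaged a log2 level of 12.29 ± 0.43 (SD, n = 2) and DKO livers 8.89 ± 0.25 (SD, n = 2), a 10.5-fold fall (log2 change -3.39, SE 0.38, limma adjusted p = 0.0056). The log2 change was -3.70 without control replicate 2, and it ranged from -3.09 to -3.70 with each array left out in turn, past the threshold each time. In a whole liver, fewer hepatocytes and less Aqp9 RNA per hepatocyte cannot be told apart.

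Aqp3, a glycerol and water channel best known from skin and the kidney collecting duct, gave a weak signal. Its probe (ILMN_2991272) read 247 and 278 in control replicates 1 and 2, and 199.8 and 272 in DKO replicates 1 and 2, against lowest detected intensities of 192 to 203 per array. The groups overlapped, since DKO replicate 2 lay between the controls. The log2 change of -0.50 (SE 0.51) did not pass the threshold (limma adjusted p = 0.75), with a 95% interval of -1.69 to 0.69. The change was 0.14 without DKO replicate 1 and -0.14 without control replicate 2. Each DKO array read below the control of the same number (log2 5.65 against 6.42, and 6.93 against 7.15).

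Aqp7, the channel by which glycerol leaves fat cells, was represented by 4 probes, and none was detected on any array. Their intensities lay between 144 and 185, with detection p from 0.18 to 0.91. The probe of Aqp7 with the highest control signal (ILMN_1254953) read 166 and 185 in controls and 144 and 172 in DKO livers. Its level was not detectable at this signal, and no fold is given. Of 4 adipocyte markers, Adipoq and Plin1 were detected on none of the 4 arrays, Lep on 1 array of each group and Cidec on 1 DKO array.

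Among the water-selective channels, Aqp1 is found in bile duct cells, red blood cells and endothelium. All 3 of its probes were detected on every array and all read lower in both DKO livers. The brightest (ILMN_2756486) read 21680 and 13352 in control replicates 1 and 2, and 11679 and 6937 in DKO replicates 1 and 2. The second (ILMN_2980661) read 5695 and 6115 in controls and 3540 and 2554 in DKO livers. The third (ILMN_2980663) read 2316 and 2201 against 1488 and 1036. The groups did not overlap on any of them, and the mean DKO intensities were 53.1%, 51.6% and 55.9% of the control means.

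The log2 changes of these probes of Aqp1 were -0.91 (SE 0.42), -0.94 (SE 0.36) and -0.89 (SE 0.36). None passed the threshold (limma adjusted p = 0.37, 0.27 and 0.30), and the 95% intervals ran from -1.89 to 0.07, from -1.79 to -0.10 and from -1.74 to -0.04, without adjustment for the number of probes. On the normalized log2 scale the brightest probe averaged 14.02 ± 0.45 (SD, n = 2) in controls, against 13.12 ± 0.52 (SD, n = 2) in the DKO group. Without control replicate 2 the change of Aqp1 was -1.23. Probes of a gene share the RNA of the same 4 livers, so their accord is not a replicate of the animals.

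Markers of the other cells that hold Aqp1 were read beside it, and both DKO livers lay below both controls in 22.8% of all tested genes. Of 6 tested erythroid markers, 4 were lower in this way and 0 passed the threshold in limma, with a median log2 change of -1.01. The summed normalized intensity of the 7 erythroid markers with a probe was 134422 and 142198 in controls and 96559 to 101237 in DKO livers. The bright probes of Hba-a1 and Slc4a1 set most of this sum, and Epb42 was detected on no array. Hba-a1, an alpha-globin gene, differed by -0.04, but it read log2 15.90 to 16.01, among the brightest readings. A ceiling on its signal was not tested. The other tested erythroid markers had negative changes, from -0.73 (Rhag) to -1.42 (Alas2). Of 8 endothelial markers, 5 were lower in this way and 0 passed, with a median of -0.48. Emcn and Cdh5 differed by 0.08 and 0.05, and the other endothelial markers had negative changes, the largest that of Vwf (-0.85). Their sum was 5474 to 8597 in controls and 3827 to 5504 in DKO livers, and none was undetected throughout. Of 3 tested biliary markers, Krt7 (32.1-fold higher, adjusted p = 0.0042, detected in 1 of 2 controls) and Krt19 (at least 15.9-fold higher, adjusted p = 0.0064, undetected in controls) rose. The sum of the 4 biliary markers with a probe was 166 to 224 in controls and 2179 to 4376 in DKO livers. The part of any of these cells in the level of Aqp1 was not tested.

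Aqp4, the other water channel of bile duct cells and the main one of brain astrocytes, was not detected. Its probe (ILMN_2757232) read 158 and 183 in control replicates 1 and 2, and 163 and 177 in DKO replicates 1 and 2. The values overlapped, with detection p from 0.20 to 0.65. Neither Aqp1 nor Aqp4 was measured higher in the livers in which the keratins of bile duct cells rose. For Aqp4 this holds only down to the lowest detected intensities of 192 to 203 per array. It also holds only if its 1 probe responds to the RNA, which was not tested.

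Aqp8, the water channel of hepatocyte vesicles and canaliculi, had a wide spread within groups. Its brighter probe (ILMN_2756379) read 1984 and 4197 in control replicates 1 and 2, and 949 and 1794 in DKO replicates 1 and 2. The other (ILMN_2854157) read 1239 and 3527 in controls and 793 and 1666 in DKO livers. On both probes replicate 2 was the higher array of its group, and after normalization DKO replicate 2 lay above control replicate 1.

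On the log2 scale the brighter probe of Aqp8 averaged 11.36 ± 1.03 (SD, n = 2) in controls, against 10.19 ± 0.77 (SD, n = 2) in the DKO group. The log2 changes of -1.17 (SE 0.58) and -0.88 (SE 0.69) did not pass the threshold (limma adjusted p = 0.42 and 0.65), with 95% intervals of -2.54 to 0.19 and -2.51 to 0.75. The change of the brighter probe moved with the array that was dropped. It shrank to -0.44 when control replicate 2 was dropped, and to -0.63 when DKO replicate 1 was. It grew to -1.90 in the fit lacking control replicate 1, and to -1.72 in that lacking DKO replicate 2. On this probe each DKO array lay below its same-numbered control (log2 9.65 against 10.63, and 10.73 against 12.09). DKO replicate 2, the higher DKO array, read 4.94 for Eif2s3y and 9.07 for Xist. The part of sex in the level of Aqp8 was not tested.

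Aqp5, the apical water channel of salivary, lacrimal and airway glands, was at the limit of detection. One probe (ILMN_1259982) was detected on no array, at 161 to 176. The other (ILMN_3115472) read 186 and 169 in control replicates 1 and 2, both below detection, and 192 and 204.8 in DKO replicates 1 and 2, with detection p of 0.049 and 0.040. It entered the test through these DKO values, just inside the detection limit. Both lay above both controls, but the log2 change of 0.46 (SE 0.35) did not pass the threshold (limma adjusted p = 0.64), with a 95% interval of -0.36 to 1.28. Without control replicate 2 the change was 0.25. The DKO mean (log2 5.57) lay between the lowest detected levels of the control arrays (5.52 and 5.69), so no fold is given.

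Aqp11, an unusual aquaporin of the endoplasmic reticulum whose loss in mice leads to polycystic kidneys, was lower on both of its probes. The brighter (ILMN_1225901) read 1022 and 1417 in control replicates 1 and 2, and 587 and 543 in DKO replicates 1 and 2. The other (ILMN_2670407) read 707 and 747 in controls and 455 and 372 in DKO livers. Both DKO livers lay below both controls on each probe. The log2 level of the brighter probe averaged 10.01 ± 0.63 (SD, n = 2) in controls, against 8.72 ± 0.10 (SD, n = 2) in the DKO group. The log2 changes of -1.28 (SE 0.40) and -1.09 (SE 0.37) did not pass the threshold (limma adjusted p = 0.18 and 0.21), while their 95% intervals, -2.24 to -0.33 and -1.96 to -0.23, lay below 0 before adjustment. Without control replicate 2 the change of the brighter probe was -0.84.

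**Figure D2:**
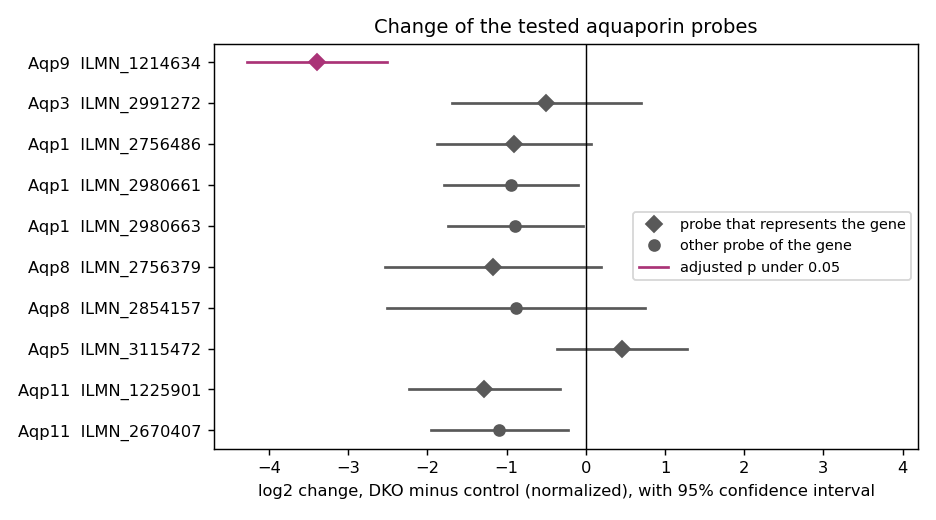
Log2 change (DKO minus control, normalized values) of the 10 tested aquaporin probes, with unadjusted 95% confidence intervals; diamonds mark the probe that represents its gene. The interval of Aqp9, -4.28 to -2.51, lies apart from 0 and is the only one past the adjusted threshold, while 9 of the 10 changes are negative.

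**Figure D3:**
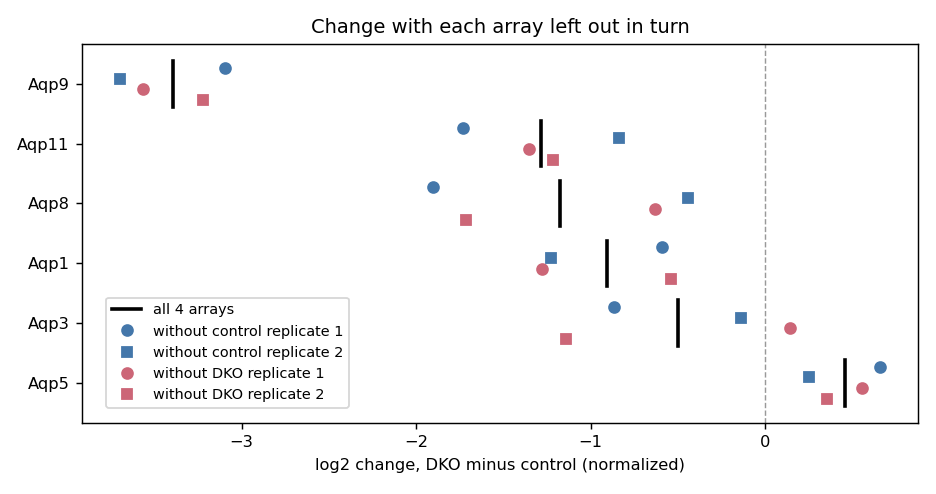
Log2 change of the 6 tested aquaporin genes (DKO minus control) with all 4 arrays (black bar) and with each array left out in turn (symbols). Aqp9 stays between -3.70 and -3.09, Aqp8 moves from -1.90 to -0.44, and Aqp3 crosses 0 to 0.14 without DKO replicate 1.

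The other family members Mip, Aqp2, Aqp6 and Aqp12, known from lens, kidney and pancreas, were detected on no array, so 0 of the 4 were tested. Their summed normalized intensity was 107 to 108 in controls and 109 to 113 in DKO livers.

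The genes whose levels followed that of Aqp9 most closely over the 4 arrays were sought among 9496 other tested genes, by the root mean square difference of log2 values centred on each gene's mean. They were Abcd2, a peroxisomal fatty acid transporter (0.068), Il1rn, the interleukin-1 receptor antagonist (0.13), and Apoc3, an apolipoprotein of triglyceride-rich particles (0.14). Abcd2 was detected on neither DKO array and Il1rn on 1 of them, so their likeness rests in part on background readings. Abcd2 was at least 7.27-fold lower, and the log2 changes of Il1rn and Apoc3 were -3.59 and -3.18. With 4 arrays in 2 groups such likeness rests mainly on the size of the fall, and it says nothing of shared control.

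The fall of the glycerol channel was set beside the genes that handle glycerol inside the cell. Of 9 tested genes of glycerol and triglyceride handling, 0 passed the threshold in limma, 4 were lower in both DKO livers than in both controls and 1 higher, with a median log2 change of -0.81. Groups were apart in 45.5% of all tested genes. Gpd1, the cytosolic glycerol-3-phosphate dehydrogenase, had a log2 change of -1.65 (SE 0.58, limma adjusted p = 0.23), and Lpin2, a phosphatidate phosphatase, of -1.58 (SE 0.55, limma adjusted p = 0.23). Gpd1 read 6.98 and 7.87 in control replicates 1 and 2, and 4.98 and 6.55 in DKO replicates 1 and 2, undetected in DKO replicate 1, so that its change rests in part on a background reading. Glycerol kinase had no probe named here.

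Water follows bile salts and other solutes into bile, so hepatocyte bile transporters were read as the partners of Aqp8. Of 9 tested, 3 were significantly lower and 0 higher, against 1.68% and 1.75% of all tested genes. Their median log2 change was -1.51. In both DKO livers 8 of the 9 were lower than in both controls, against 22.8% of all tested genes. Abcg8 and Abcg5, which together export sterols, had log2 changes of -5.14 (SE 0.39, adjusted p = 0.0030) and -4.48 (SE 0.57, adjusted p = 0.0090), and the bile salt export pump Abcb11 -3.73 (SE 0.33, adjusted p = 0.0033). Abcg8 was detected on 1 of the 2 DKO arrays.

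Genes of bile duct fluid secretion, the partners of Aqp1 and Aqp4 in BECs, gave no calls. Of 7 tested, 0 passed the threshold in limma, and the median log2 change was 0.12. In both DKO livers 2 were higher and 1 lower, and groups were apart in 45.5% of all tested genes. The chloride channel gene Ano1, undetected in controls and tested through its DKO arrays, was at least 1.69-fold higher (limma adjusted p = 0.29). The sodium-potassium-chloride cotransporter gene Slc12a2 had a log2 change of 1.12 (SE 0.35, limma adjusted p = 0.17). Changes of similar size went the other way. Kcnn4, the gene lower in both DKO livers, had a log2 change of -1.08 (SE 0.41, limma adjusted p = 0.27). Car2 also had a negative change, but its groups overlapped. The chloride channel Cftr and the secretin receptor Sctr, which start ductal secretion, were among 5 members detected on no array. Slc12a2 read 8.95 and 8.89 in controls and 9.84 and 10.26 in DKO livers.

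Of 8 tested regulators known to act on aquaporin genes or on hepatic glycerol use, 0 passed the threshold in limma, with a median log2 change of 0.069. The bile acid receptor Nr1h4 had the largest change (-1.93, SE 0.42, limma adjusted p = 0.065), reading 11.28 and 10.72 in controls and 9.50 and 8.64 in DKO livers. The co-activator Ppargc1a (-0.87, SE 1.33, limma adjusted p = 0.85) ranged from 6.02 to 10.64 between the DKO livers.

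Hepatocyte markers were read beside Aqp9 and Aqp8. Of 9 tested, 1 was significantly lower and 0 higher, against 1.68% and 1.75% of all tested genes. It was Asgr1, a hepatic lectin receptor (-5.36, SE 0.38, limma adjusted p = 0.0030). In both DKO livers 5 of the 9 were lower than in both controls, as were 22.8% of all tested genes. The median log2 change of these hepatocyte markers was -0.89 (-0.81 with undetected genes at their bound). Their summed normalized intensity was 191604 to 205603 in controls and 178781 to 178849 in DKO livers, set mainly by very bright probes such as that of Ttr, with a log2 level of 15.64 to 15.71 on all 4 arrays. Fabp1 was detected on no array, at 148 to 168, and whether its probe responds to the RNA was not tested. The granulocyte markers, of interest because human neutrophils carry AQP9, had a median of -0.56 with 0 of 7 past the threshold. In both DKO livers 2 of the 7 were lower than in both controls, near the 22.8% of all tested genes. Their sums were 101523 to 145812 in controls and 88309 to 96530 in DKO livers. The part of these cells in the fall of Aqp9 was not tested.

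**Figure D4:**
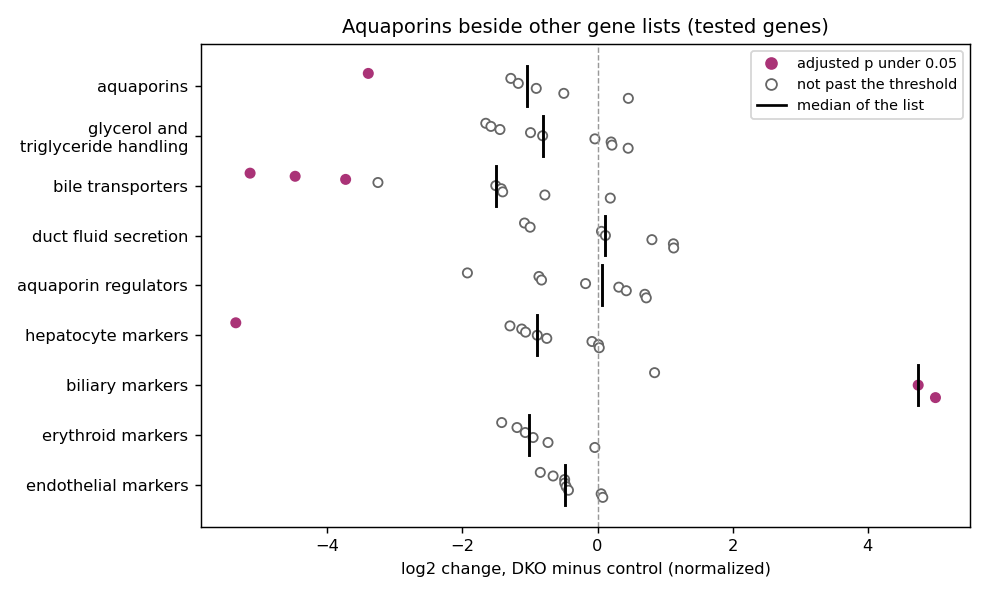
Log2 change (DKO minus control, normalized values) of the tested genes of each list, with filled symbols for genes past the adjusted threshold and a black bar for the median. The aquaporin median of -1.04 lies between those of the bile transporters (-1.51) and of glycerol handling (-0.81), and Krt7 and Krt19 stand at the right among the biliary markers.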

How the data were processed

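Biotin-labelled cRNA from whole-liver RNA was read on 4 Illumina MouseRef-8 v2.0 arrays. The authors deposited linear intensity per probe before normalization, each value with its detection p-value, and a further table of normalized intensity. How the latter was normalized was not given in the sources used here. Groups came from the sample titles. Background was corrected by normexp in limma 3.58.1 (R 4.3.3), whose background mean and SD come from the detection p-values, with an offset of 16, which pulls changes of dim probes toward 0, followed by quantile normalization and log2 transformation. The 13654 of 25697 probes detected (p under 0.05) in 2 or more libraries entered a linear model with eBayes (two-sided, no block), with Benjamini-Hochberg adjustment over all of them at 0.05. The annotation gave 23978 probes 1 symbol, 0 several and 1719 none, and 23962 matched RefSeq (GRCm38.p6) by Entrez identifier. A gene detected on no array of a group was given a bound, taking per array the higher of its own value and the lowest detected value. All aquaporins were named, with up to 3 rises and 3 falls of each other list, or its 2 largest changes, the 3 genes most like a called aquaporin, and markers where a result touched them. For bile duct fluid secretion, Kcnn4 and Car2 were named as well, since the largest changes there were both rises. The members and lists were chosen with earlier results of these data known. The fit was tested on simulated data. There it found most of the larger changes and few of the smallest, and the share of false calls exceeded the nominal level, so adjusted p-values near the threshold are to be read with caution. Motifs were chosen after the intensities had been seen.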

Additional observations from a re-analysis of the deposited data

How the results depend on the processing

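Most alternatives changed 1 step. The authors' normalized values replaced both background correction and normalization, and a paired t-test changed both the pairing and the variance estimate. Under every alternative run, 0 aquaporins were called higher. Aqp9 was called lower in every setting but 2. With undetected probes tested as well its log2 change was still -3.39 but its adjusted p was 0.061, and 0 aquaporins were called lower (the cause was not tested). The methods name a paired t-test for their statistics but only a p threshold for the arrays, so pairing arrays by number was a choice made here. With that paired t-test (two-tailed, on the same values) the log2 change of Aqp9 was -3.39 with an adjusted p of 0.49. It called 0 aquaporins, against 2 at the unadjusted threshold that the methods state. Over all genes, that test gave 962 at the unadjusted threshold, and 1 higher and 1 lower after Benjamini-Hochberg adjustment. In the other fits of all 4 arrays, which included a higher offset, cyclic loess, a robust trend, a stricter detection limit and the mean of a gene's probes, its log2 change ran from -3.04 without background correction to -3.47 with median scaling. Its adjusted p ran from 4.1e-05 with the block to 0.039 without control replicate 1. With the replicate number as a block, 3 aquaporins were called lower: Aqp9, Aqp8 (-1.17, adjusted p = 0.020) and Aqp11 (-1.28, adjusted p = 0.025), and 680 genes were higher and 672 lower. Deviations of same-numbered arrays from their group means correlated (r = 0.54 over 13654 probes), so these arrays shared part of their variation. There are only 2 pairs, and no label ties the numbers to a litter or batch. The source of the shared part was not tested. The numbers come from the sample titles, and another label numbers both controls 1 and both DKO livers 2. Over all genes, 166 were higher and 160 lower. These counts became 63 and 74 if background was left uncorrected, 79 and 79 on the normalized table of the authors, 15 and 26 without a filter, and 91 and 89 when detection on all 4 arrays was required. With each array left out they ranged from 64 to 289 and from 55 to 253, and leaving out control replicate 1 gave 64 and 55, control replicate 2 gave 85 and 92, and DKO replicate 1 gave 289 and 253. Such a fit assumes that the lone array of a group varies like the other group. Without 1 array, Aqp3 ranged from -1.14 to 0.14 and changed sign only without DKO replicate 1. Aqp5 gave no value when detection on all 4 arrays, or a detection p under 0.01, was required.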

Other observations

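Among markers of the pancreatic acinar cell, where Aqp12 is known from, 1 of 3 tested genes was significantly lower in DKO livers. By the same rule 1.68% of all tested genes were lower. Amy2a5, an amylase gene of a family of near-identical copies, so that its own share of the probe's signal is uncertain, read 11.87 and 9.89 in control replicates 1 and 2, and 7.90 and 6.66 in DKO replicates 1 and 2 on the normalized log2 scale (log2 change -3.60, SE 0.70, limma adjusted p = 0.041). The acinar genes Ptf1a, Cpa1 and Cela3b were detected on no array, and the summed normalized intensity of the 6 markers with a probe was 1879 to 4262 in controls and 746 to 796 in DKO livers. Most of the fall of this sum is that of Amy2a5. Cela1, detected on all 4 arrays, read 8.51 and 9.59 in controls and 8.76 and 8.98 in DKO livers, and Ctrb1 was detected in both controls and neither DKO liver.

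Of 7 tested mesenchymal markers, 0 passed the threshold in limma, with a median log2 change of -0.086, and their summed normalized intensity was 21789 and 8055 in control replicates 1 and 2, and 18594 and 7759 in DKO replicates 1 and 2. Dcn, decorin, which gives much of this sum, read 13.74 and 11.99 in controls and 13.32 and 11.39 in DKO livers. Of the 7, 1 was lower in both DKO livers than in both controls, against 22.8% of all tested genes. It was the collagen gene Col3a1 (11.26 and 10.81 against 10.53 and 10.33). The largest change was that of Acta2 (0.79, SE 0.55, limma adjusted p = 0.60), which read 12.01 and 10.54 against 12.50 and 11.64. Pdgfrb had a log2 change of 0.69 and was higher in replicate 2 of each group (5.34 and 5.93 against 5.86 and 6.79). The other changes were negative. A replicate effect on these markers was not tested.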
